A study of Mus musculus with 24 samples.

Results

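Collagens, laminins and their basement membrane partners were examined in mouse embryonic stem cells in which RACK1, a scaffold protein on the small subunit of the ribosome, carries an auxin-inducible degron (RACK1-AID). Members were chosen by symbol from a list of 10 genes, the fibrillar collagens Col1a1, Col1a2 and Col3a1 and the basement membrane genes Col4a1, Col4a2, Lama1, Lamb1, Lamc1, Nid1 and Sparc. The authors' deposited table of 13504 genes had a row for 8 of these, 1 fibrillar collagen and all 7 basement membrane genes, and Col1a2 and Col3a1 were not analysed here. The cells were of the E14-mESC line, and all groups carry RACK1-AID. The Rps26Tir1 line carries RPS26-Tir1, labelled Ribo-Tweezer, in which the name joins the auxin receptor TIR1 to a ribosomal protein, and the FreeTir1 line is the control with Free Tir1. Each line received indole-3-acetic acid (IAA), the auxin that brings a degron-tagged protein to TIR1 for degradation, or the solvent DMSO, in each case for 12 h. Polyadenylated RNA of free mRNA, low translation and heavy translation fractions of a polysome profile was sequenced, giving 24 libraries in 12 groups of 2. Whether each line is 1 clone and whether the replicates grew as separate cultures are not stated in the labels, so p-values reflect the spread among these libraries alone, and that spread may be technical.

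Basement membranes are thin sheets of extracellular matrix that underlie epithelia, and in the early mouse embryo they are laid down by primitive endoderm and the epiblast. Laminin trimers of an alpha, a beta and a gamma chain assemble into one network, type IV collagen trimers of alpha-1 and alpha-2 chains into another, and nidogen joins them. Fibrillar collagens such as types I and III form the tensile fibres of connective tissue and are made mainly by fibroblasts and bone cells. All these chains are secretory proteins translated at the endoplasmic reticulum, where collagens are hydroxylated, folded and packed for export.

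The start sites of the type I collagen mRNAs are shown first because translation is the subject of the assay and because, as background, their start codons lie in a conserved stem-loop bound by the protein LARP6, known mainly from human collagen mRNAs. Each window holds 12 bases before the start codon, the start codon in capitals and 15 bases of coding sequence, from GENCODE M21 (GRCm38), an annotation that may differ from the one the authors used. Both type I collagen genes stand beside both type IV collagen genes.
Col1a1: tagggtctagacATGttcagctttgtggac
Col1a2: taagtggtagacATGctcagctttgtggat
Col4a1: gggcgcgccaccATGgggccccggctcagc
Col4a2: aagactgggatcATGgaccgagtgcggttc
These windows lie in exons at chr11:94936357-94936386 (plus strand), chr6:4505828-4505857 (plus strand), chr8:11312582-11312611 (minus strand) and chr8:11313452-11313481 (plus strand). Of the 30 positions, Col1a2 had the same base as Col1a1 at 24. The 7 basement membrane genes had the same base at 8 to 12 positions, the start codon included. Of Col1a1 and Col1a2, only Col1a1 has expression values here.

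Collagen chains repeat a triplet that begins with glycine, which lets 3 chains wind into a helix, and the coding sequence shows it as GGN codons spaced evenly, 1 to a triplet. Stretches of 45 bases from the longest such run of each measured collagen show this, with the glycine codons in capitals.
Col1a1: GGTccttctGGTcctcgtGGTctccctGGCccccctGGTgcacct
Col4a1: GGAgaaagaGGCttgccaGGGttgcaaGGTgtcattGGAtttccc
Col4a2: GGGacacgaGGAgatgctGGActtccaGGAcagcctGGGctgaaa
They lie in coding exons at chr11:94939697-94939741 (plus strand), chr8:11247051-11247095 (minus strand) and chr8:11429447-11429491 (plus strand) of GRCm38. Col1a1 had 2 runs of at least 5 triplets, one of 17 and one of 338 triplets without a break. The longest run was of 40 triplets in Col4a1 and of 66 in Col4a2, whose repeats were broken into 22 and 24 runs of at least 5 triplets. Glycine codons made up 26.8% of the codons of Col1a1, 28.6% of Col4a1 and 27.6% of Col4a2, and between 5.30% in Sparc and 9.40% in Nid1 of the non-collagen members. No run of 5 triplets was present in Lama1, Lamb1, Lamc1, Nid1 or Sparc.

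**Figure D1:**
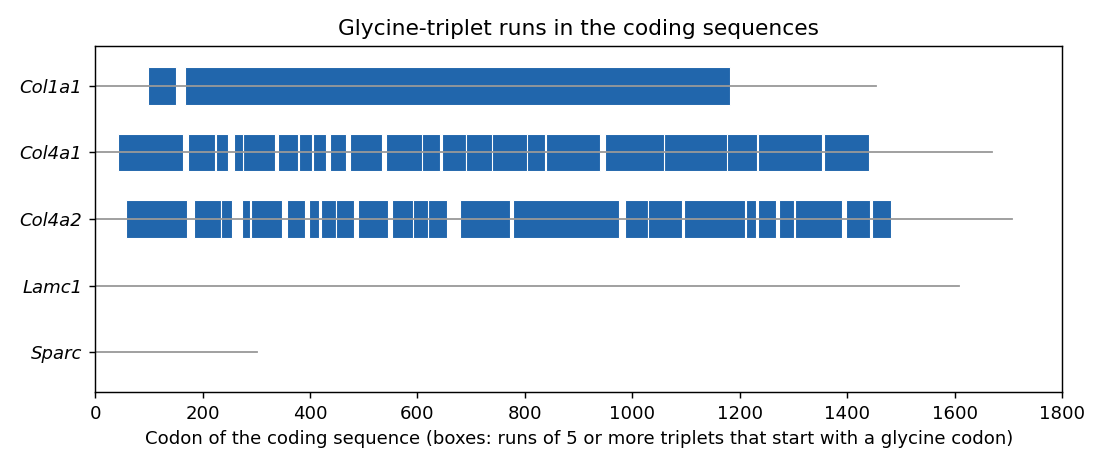
Runs of at least 5 triplets starting with a glycine codon (boxes) along the coding sequence (line, in codons from the start codon) of 3 collagen genes and 2 non-collagen members. Col1a1 has 2 runs, of 17 and 338 triplets, Col4a1 and Col4a2 have 22 and 24 runs of at most 66 triplets, and Lamc1 and Sparc have none.

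Col4a1 and Col4a2 lie head to head on chromosome 8, a layout known for the type IV collagen gene pairs of mammals. Their annotated transcripts start on opposite strands and overlap by 22 bases, at chr8:11312805-11312826, printed here from the plus strand of the RefSeq promoter table (GRCm38.p6).
Col4a1 and Col4a2 shared start: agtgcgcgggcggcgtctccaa
Promoter entries were found for 5 of the 8 measured members, Col4a1, Col4a2, Lamb1, Nid1 and Sparc.

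The genes themselves differ in size. Col1a1 (ENSMUSG00000001506) spans chromosome 11, 94936224 to 94953042, with 51 exons and a transcript of 5930 bases in the isoform that the table names. Lama1 (ENSMUSG00000032796, chromosome 17, 67697259 to 67822647) has the longest transcript of the members, 9526 bases in 63 exons. Sparc (ENSMUSG00000018593, chromosome 11, 55394500 to 55423183) has the shortest, 2300 bases in 10 exons. Transcripts of Col4a1 (ENSMUSG00000031502) and Col4a2 (ENSMUSG00000031503) have 6615 and 6450 bases, and those of Lamb1 (ENSMUSG00000002900), Lamc1 (ENSMUSG00000026478) and Nid1 (ENSMUSG00000005397) have 5784, 7622 and 6091 bases. Of the 31-base stretches of each transcript, at most 2.71%, in Nid1, also occur in transcripts of other genes, and none does in Col1a1, Col4a1, Col4a2, Lama1 or Lamb1. Antisense genes overlap 43 exonic bases of Col4a2 and 143 of Nid1. No source used here says whether the authors counted by strand.

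Each gene came with the authors' log fold change between IAA and DMSO, its raw and adjusted p-values, and an average expression, and without values per library. Depth per gene is therefore unknown, and neither means with SDs nor levels by fraction can be shown. Since no header names the treatment on top or the fractions used, values are called positive or negative. If IAA was divided by DMSO, a negative value is lower with IAA. The logarithm was read as base 2. Standard errors (SE) and 95% intervals were worked back from the p-values. The members were put forward with these results known, so their values and p-values describe the genes and test nothing about the choice. At an adjusted p under 0.05, here named a call, the authors' deposited table held 222 genes (1.64%) for Rps26Tir1 cells, of which 149 (1.1%) were positive and 73 (0.541%) negative. For FreeTir1 cells the authors' deposited table held 0 (0%), with 0.0778 as its lowest adjusted p. Unadjusted p-values under 0.05 were found for 16.3% of genes in Rps26Tir1 cells and for 6.69% in FreeTir1 cells. The mRNA of the tagged protein, Rack1, had values of -0.05 in Rps26Tir1 cells (adjusted p = 0.892) and 0.19 in FreeTir1 cells (adjusted p = 0.818), per the authors' deposited table. Since a degron acts on protein, the Rack1 mRNA does not check the depletion. Rps26 had values of 0.06 in Rps26Tir1 cells (adjusted p = 0.843) and -0.16 in FreeTir1 cells (adjusted p = 0.840), per the authors' deposited table.

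The laminin genes, Nid1 and Sparc had averages above the median of all genes, which was 3.94, and Col4a1, Col4a2 and Col1a1 had averages below it. Average expression (log2) was 6.91 for Lamc1, 6.19 for Nid1 and 6.17 for Sparc in the authors' deposited table. The authors' average is the same in the columns of both lines, and no header names the libraries that entered it. Lamb1 stood at 4.92, Lama1 at 4.66, Col4a1 at 3.58 and Col4a2 at 2.24 in the authors' deposited table. Col1a1 stood at 0.15 in the authors' deposited table. Of all genes, 44.5% had a lower average than Col4a1, 27.6% than Col4a2 and 11.1% than Col1a1. Long transcripts collect more reads, so levels were compared between genes after subtracting the log2 of transcript length in kilobases, which assumes that the deposited average is not already per length. On this per-kilobase log2 scale the order of levels was Sparc at 4.97, Lamc1 at 3.98, Nid1 at 3.59, Lamb1 at 2.39, Lama1 at 1.41, Col4a1 at 0.86, Col4a2 at -0.45 and Col1a1 at -2.41. The spread of these averages over libraries is not known, so neighbours in this order cannot be said to differ.

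The chains of one trimer had different average levels, differences that could not be tested. Lama1, Lamb1 and Lamc1 encode the alpha, beta and gamma chains of laminin-111, the main laminin of the early embryo. On the per-kilobase scale Lama1 minus Lamb1 was -0.98, Lama1 minus Lamc1 was -2.57 and Lamb1 minus Lamc1 was -1.59, all in log2 units. Of these 3 genes Lamc1 thus had the highest average and Lama1 the lowest, in an order whose neighbours cannot be said to differ. Another laminin alpha chain gene, Lama5, stood at 3.01 on this scale, between Lamb1 and Lamc1. Col4a1 was 1.30 log2 units above Col4a2 on the per-kilobase scale, a ratio of 2.47. Sparc, a calcium-binding glycoprotein that binds collagens, was 7.38 log2 units above Col1a1 on the same scale.

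**Figure D2:**
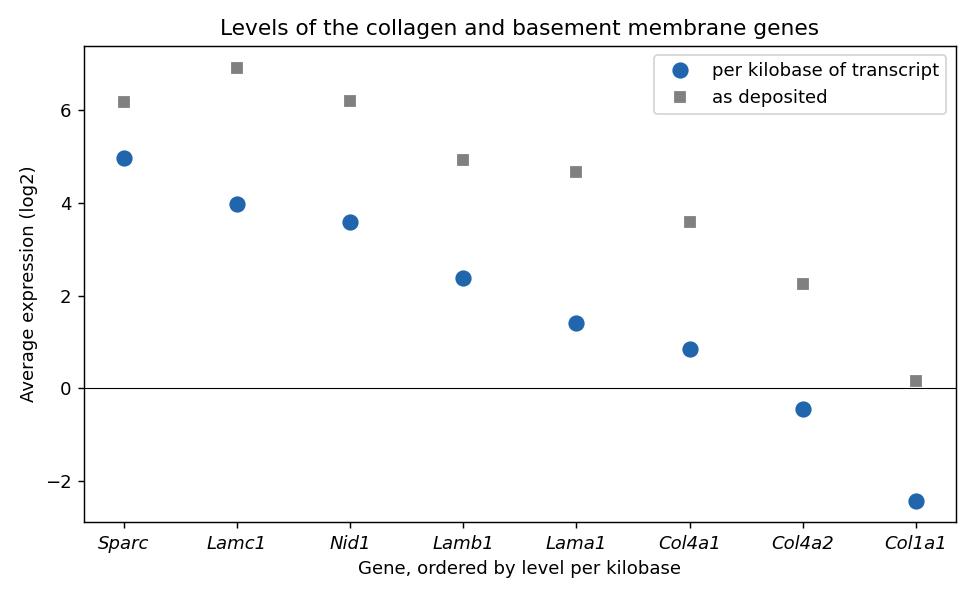
Average expression (log2) of the 8 measured members as deposited (grey squares) and per kilobase of transcript (blue circles), ordered by the latter. Levels run from 4.97 for Sparc to -2.41 for Col1a1 per kilobase, and the type IV collagen genes lie between the laminin genes and Col1a1.

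Col1a1 encodes the alpha-1 chain of type I collagen, the chief protein of skin, tendon and bone. It was the 1 member of the 8 with an adjusted p under 0.05, against 1.64% of all genes in Rps26Tir1 cells, a share from which nothing is read because these values were known when the members were chosen. For Rps26Tir1 cells the authors' deposited table gave Col1a1 a log2 fold change of -1.42 (adjusted p = 0.0254). The worked-back SE was 0.329 and the 95% interval ran from -2.09 to -0.74, which on a linear scale is a ratio of 0.374 between 0.234 and 0.597. For FreeTir1 cells the authors' deposited table gave Col1a1 a value of -0.05 (adjusted p = 0.990), with an SE of 0.305 and an interval from -0.68 to 0.57. The value is thus negative in Rps26Tir1 cells, with a wide interval, and near 0 in FreeTir1 cells.

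Values of genes with averages as low as that of Col1a1 are given beside it, and the part of its low level in its value was not tested. Among the 2313 genes with average expression below 1, the median SE was 0.363 in Rps26Tir1 cells and 0.367 in FreeTir1 cells. The SEs of Col1a1 itself were 0.329 in Rps26Tir1 cells and 0.305 in FreeTir1 cells. Among the 8633 genes at 3 and above the medians were 0.115 in Rps26Tir1 cells and 0.116 in FreeTir1 cells. Of the genes below 1, 36 (1.56%) were called in Rps26Tir1 cells and 15 (0.649%) were called with a negative value, Col1a1 among them. Of the 2558 genes between 1 and 3, a class with 1 member, 56 (2.19%) were called and 24 (0.938%) were negative, and of the genes at 3 and above, with 6 members, 130 (1.51%) were called and 34 (0.394%) were negative. Among genes averaging below 1, a value at or below that of Col1a1 occurred, whatever its p-value, for 2.68% in Rps26Tir1 cells and for 2.64% in FreeTir1 cells. By size of the fold change Col1a1 was the 10th of the 73 genes called with a negative value in Rps26Tir1 cells. A minimum average of 1 or 3 leaves Col1a1 out whatever its p-value, and so does not test its call.

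Col4a1 and Col4a2 encode the alpha-1 and alpha-2 chains of the type IV collagen network found in all basement membranes. Both had negative values in Rps26Tir1 cells, and neither passed the threshold over all genes. For Col4a1, the authors' deposited table gave -0.29 in Rps26Tir1 cells (p = 0.0188, adjusted p = 0.193), with a worked-back SE of 0.117. For Col4a2, the authors' deposited table gave -0.37 in Rps26Tir1 cells (p = 0.0304, adjusted p = 0.242), with a worked-back SE of 0.161. These correspond to ratios of 0.817 and 0.776. In FreeTir1 cells the authors' deposited table gave Col4a1 a value of -0.14 (adjusted p = 0.918) and Col4a2 one of 0.14 (adjusted p = 0.963). The FreeTir1 intervals, from -0.50 to 0.21 for Col4a1 and from -0.41 to 0.68 for Col4a2, include the values of the same genes in Rps26Tir1 cells.

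Laminin genes were near 0 in both lines. For Lama1, the alpha-1 chain, the authors' deposited table gave -0.034 in Rps26Tir1 cells (adjusted p = 0.913) and 0.0060 in FreeTir1 cells (adjusted p = 0.997). For Lamb1, the beta-1 chain, the authors' deposited table gave -0.013 in Rps26Tir1 cells (adjusted p = 0.976) and 0.0044 in FreeTir1 cells (adjusted p = 0.998). For Lamc1, the gamma-1 chain found in most laminins, the authors' deposited table gave 0.05 in Rps26Tir1 cells (adjusted p = 0.851) and 0.025 in FreeTir1 cells (adjusted p = 0.984). The 95% intervals of the Rps26Tir1 values ran from -0.26 to 0.19 for Lama1, from -0.28 to 0.26 for Lamb1 and from -0.15 to 0.25 for Lamc1. All of these intervals include 0, and they overlap those of Col4a1, from -0.53 to -0.05, and Col4a2, from -0.69 to -0.04.

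For Nid1, which encodes the linker nidogen-1, the authors' deposited table gave 0.11 in Rps26Tir1 cells (adjusted p = 0.607) and -0.09 in FreeTir1 cells (adjusted p = 0.918). It was the basement membrane member with the highest value in Rps26Tir1 cells, with an interval from -0.09 to 0.31. For Sparc, the authors' deposited table gave -0.09 in Rps26Tir1 cells (adjusted p = 0.722) and 0.0040 in FreeTir1 cells (adjusted p = 0.998). The interval of Sparc in Rps26Tir1 cells ran from -0.30 to 0.12. No basement membrane member passed the threshold in either line. At an unadjusted p under 0.05 the 2 type IV collagen genes passed in Rps26Tir1 cells, against 16.3% of all genes. Nothing is read from this count, because the members were chosen with these values known.

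**Figure D3:**
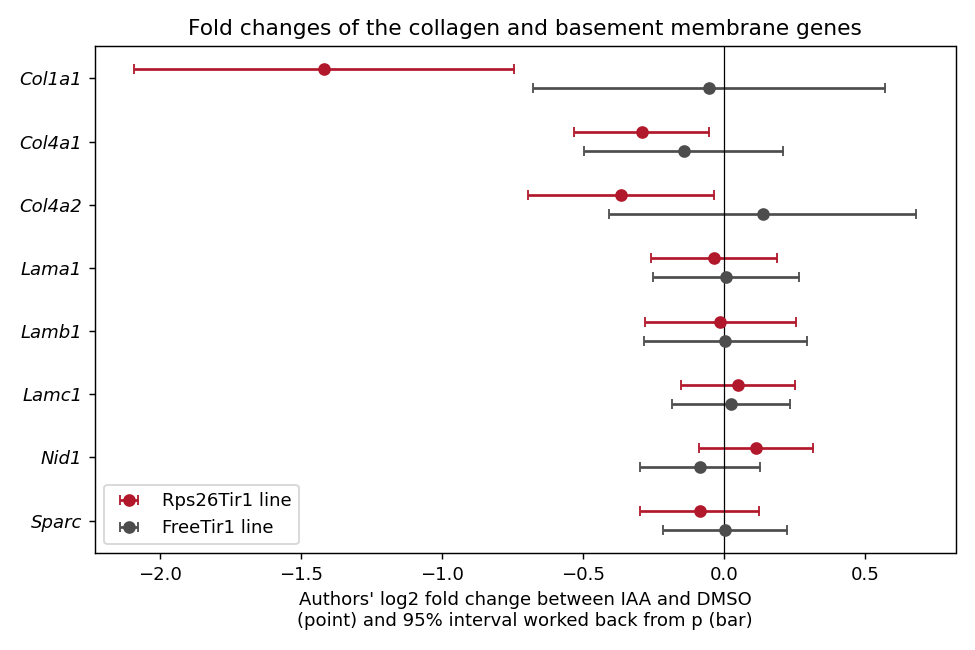
Authors' log2 fold change between IAA and DMSO (points) with 95% intervals worked back from the p-values (bars) for the 8 measured members, in Rps26Tir1 cells (red, above) and FreeTir1 cells (grey, below). Col1a1 stands at -1.42 in Rps26Tir1 cells and at -0.05 in FreeTir1 cells, and the laminin genes lie close to 0 in both.

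A call in one line and not in the other does not show that the lines differ, so the difference, Rps26Tir1 minus FreeTir1, was tested for every gene from the worked-back SEs, with Benjamini-Hochberg adjustment over all 13504 genes. Of all genes 1 (0.00741%), Rnaset2b, passed at adjusted p under 0.05 and 835 (6.18%) at an unadjusted p under 0.05. No member passed after adjustment, and Col1a1 was the 1 member with an unadjusted p under 0.05. The difference of Col1a1 was -1.37 with SE 0.449, a 95% interval from -2.28 to -0.45 and adjusted p = 0.446. The difference of Col4a2 was -0.50 with SE 0.311 and adjusted p = 0.947, and that of Col4a1 was -0.15 with SE 0.208 and adjusted p = 0.9998. Nid1 had the highest difference, 0.20 with SE 0.143 and adjusted p = 0.970. For Lama1, Lamb1, Lamc1 and Sparc the differences lay between -0.09 and 0.03, each with adjusted p = 0.9998. Errors were taken as independent between the lines, and misses of this test do not show that the lines act alike.

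**Figure D4:**
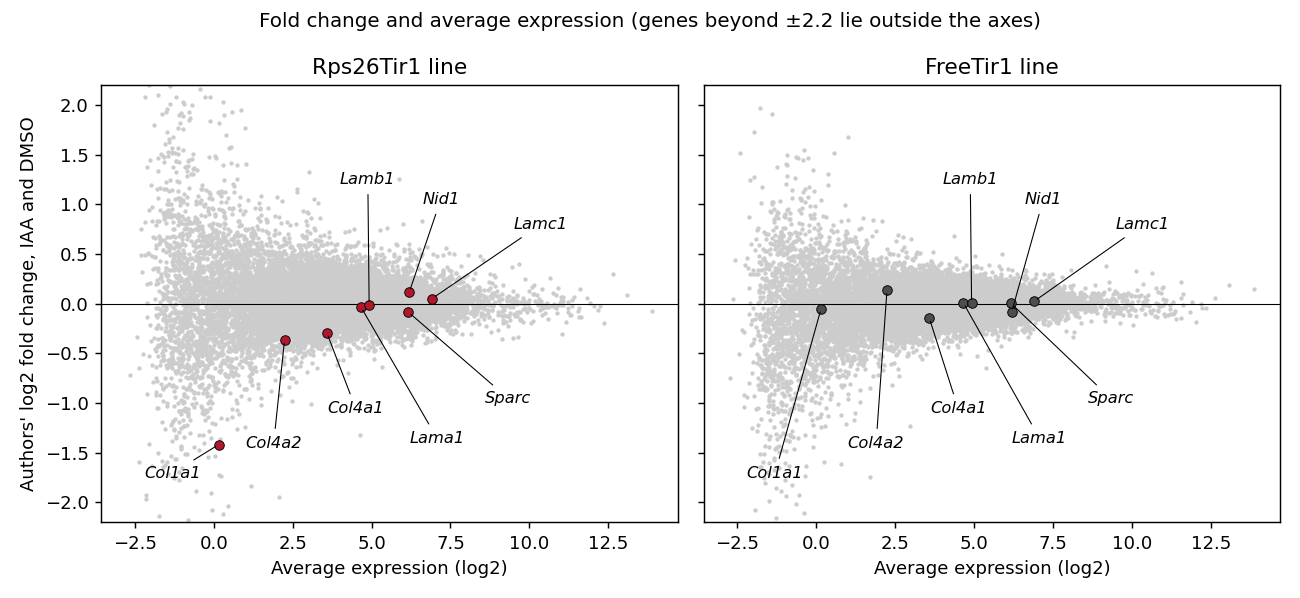
Authors' log2 fold change against average expression (log2) for all genes of the table (light grey) and for the 8 measured members (coloured, labelled), in Rps26Tir1 cells (left) and FreeTir1 cells (right). Col1a1 lies at -1.42 in Rps26Tir1 cells, at a low average of 0.15 where fold changes scatter widely, and the members with averages above 4 lie close to 0.

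The other fibrillar collagens had values of either sign, none of them called. Of 11 fibrillar collagen genes listed, 6 were measured. In Rps26Tir1 cells 1, Col1a1, was called negative and 0 positive, against 0.541% and 1.1% of all genes. Nothing is read from this count, because the value of Col1a1 was known when the members were chosen. For the 5 others the authors' deposited table gave 0.40 (Col2a1), 0.28 (Col5a1), 0.54 (Col5a3), 0.21 (Col11a1) and -0.36 (Col27a1) in Rps26Tir1 cells, with adjusted p from 0.308 to 0.882. These genes encode chains of type II, V, XI and XXVII collagen. The median of all 6 was 0.24 in Rps26Tir1 cells and -0.04 in FreeTir1 cells, against 0.01 and -0.0044 over all genes. The 7 basement membrane members had medians of -0.034 in Rps26Tir1 cells and 0.0044 in FreeTir1 cells. Col1a1 minus the median of these 7 was -1.38 in Rps26Tir1 cells and -0.06 in FreeTir1 cells. With the full lists of 6 fibrillar and 24 basement membrane genes, the difference of medians was 0.27 in Rps26Tir1 cells, of the opposite sign, and -0.06 in FreeTir1 cells. The members' contrast rests on Col1a1 alone, and the other fibrillar genes lay between -0.36 and 0.54. The interval of Col1a1 in Rps26Tir1 cells, from -2.09 to -0.74, overlapped those of Col27a1, from -1.32 to 0.61, and Col11a1, from -0.82 to 1.24. It did not overlap those of Col2a1, from -0.006 to 0.80, Col5a1, from -0.014 to 0.57, or Col5a3, from -0.012 to 1.08. These overlaps are a description only, since differences between genes were not tested and Col1a1 was put forward with its value known. All 6 have averages under 3, from -2.02 to 2.42 in the authors' deposited table.

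The other basement membrane genes were spread around 0 and none was called. Of 17 such genes measured, 8 were positive and 9 negative in Rps26Tir1 cells with a median of -0.02, and 10 were positive in FreeTir1 cells with a median of 0.03. An unadjusted p under 0.05 was found for 1 of them in Rps26Tir1 cells, Pxdn, against 16.3% of all genes, and for 3 in FreeTir1 cells, Agrn, Pxdn and Lama4, against 6.69% of all genes. Among those with the highest levels, the authors' deposited table put Nid2 at 0.02, Hspg2, which encodes perlecan, at 0.14, Lama5 at 0.05 and Agrn, which encodes agrin, at 0.03 in Rps26Tir1 cells. The FreeTir1 column of the authors' deposited table gave -0.08 for Nid2, 0.08 for Hspg2, 0.19 for Lama5 and 0.26 for Agrn, with adjusted p from 0.608 to 0.940. For Col18a1, whose product yields endostatin, the authors' deposited table gave -0.02 in Rps26Tir1 cells and 0.05 in FreeTir1 cells. Of 11 other collagens measured, 6 were positive in Rps26Tir1 cells (median 0.19) and 4 in FreeTir1 cells (median -0.13), and none was called.

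Enzymes and chaperones of collagen synthesis mostly had negative values, and none was called. Of 17 genes for collagen modification and folding, 14 had a negative value in Rps26Tir1 cells (median -0.11) and 12 in FreeTir1 cells (median -0.09). Over all genes 6349 of 13504 were negative in Rps26Tir1 cells and 6935 in FreeTir1 cells. At an unadjusted p under 0.05 the list held 3 genes in Rps26Tir1 cells, Crtap, Fkbp10 and Ppib, against 16.3% of all genes, and 0 in FreeTir1 cells, against 6.69%. The count in Rps26Tir1 cells is close to that share. For P4hb, the beta subunit of prolyl 4-hydroxylase, the authors' deposited table gave -0.09 in Rps26Tir1 cells and -0.17 in FreeTir1 cells. For its alpha subunit gene P4ha1, the authors' deposited table gave -0.07 in Rps26Tir1 cells and -0.13 in FreeTir1 cells. Both subunits thus lay slightly below 0 in each line, and neither was called. For Ppib, the cyclophilin that helps collagen fold, the authors' deposited table gave -0.26 in Rps26Tir1 cells (adjusted p = 0.201) and -0.15 in FreeTir1 cells (adjusted p = 0.828). For the galactosyltransferase gene Colgalt1, the authors' deposited table gave -0.11 in Rps26Tir1 cells and -0.16 in FreeTir1 cells. The median difference between the lines over this list was -0.07, with a smallest adjusted p of 0.911.

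Export and processing genes showed no call. Of 16 procollagen export genes, 10 were negative in Rps26Tir1 cells with a median of -0.02 and 8 in FreeTir1 cells with a median of -0.02. For Sec31a, an outer COPII coat component, the authors' deposited table gave -0.30 in Rps26Tir1 cells (adjusted p = 0.146) and -0.24 in FreeTir1 cells (adjusted p = 0.651), the lowest value of the list in each line. For the other export genes of highest average the authors' deposited table gave -0.18 (Cul3), -0.03 (Sar1a) and -0.0052 (Mia2) in Rps26Tir1 cells, against -0.17 (Cul3), 0.09 (Sar1a) and -0.14 (Mia2) in FreeTir1 cells. Of 7 genes for cleavage and crosslinking of procollagen, 4 were positive in Rps26Tir1 cells with a median of 0.05 and 3 in FreeTir1 cells with a median of -0.01. For Loxl2, a lysyl oxidase-like enzyme, the authors' deposited table gave 0.30 in Rps26Tir1 cells (adjusted p = 0.168) and 0.14 in FreeTir1 cells (adjusted p = 0.873). For Pcolce, an enhancer of procollagen C-proteinase, the authors' deposited table gave 0.05 in Rps26Tir1 cells and -0.07 in FreeTir1 cells. The related Pcolce2 and the procollagen N-proteinase gene Adamts14 had values of -0.14 and 0.06 in Rps26Tir1 cells, against -0.01 and 0.0088 in FreeTir1 cells, per the authors' deposited table.

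Among the matrix receptors, 1 laminin receptor gene was called. For Itga7, the integrin alpha-7 chain that binds laminin, the authors' deposited table gave -1.11 in Rps26Tir1 cells (adjusted p = 0.0402) and 0.32 in FreeTir1 cells (adjusted p = 0.846). The authors' deposited table gave it an average expression of 0.80, low like that of Col1a1. Its difference between the lines was -1.43 with SE 0.370 and adjusted p = 0.211. The well expressed laminin and fibronectin receptors were near 0, and the authors' deposited table put Itga6 at 0.08, Itga5 at 0.01, Dag1, which encodes dystroglycan, at -0.07 and Sdc4 at 0.09 in Rps26Tir1 cells. Of 18 receptor genes 9 were negative in Rps26Tir1 cells and 8 in FreeTir1 cells. Of 13 interstitial matrix glycoproteins 9 were positive in Rps26Tir1 cells (median 0.05) and 4 in FreeTir1 cells (median -0.05). Among them Thbs1, which encodes thrombospondin-1, was called with a positive value, which the authors' deposited table gave as 0.65 in Rps26Tir1 cells (adjusted p = 0.0473). In FreeTir1 cells the authors' deposited table gave Thbs1 a value of 0.79 (adjusted p = 0.502), and its difference was -0.14 with SE 0.338. For Fn1, which encodes fibronectin, the authors' deposited table gave -0.06 in Rps26Tir1 cells and -0.01 in FreeTir1 cells. Of 15 matrix proteases and inhibitors 10 were positive in Rps26Tir1 cells (median 0.11) and 7 in FreeTir1 cells (median -0.02), and none was called. Over the 11 lists together, 3 of 127 measured genes were called in Rps26Tir1 cells, Col1a1, Itga7 and Thbs1, each with an average expression under 1, and 0 in FreeTir1 cells. Of all genes 222 of 13504 (1.64%) were called in Rps26Tir1 cells, so nothing particular to matrix genes is read from this count.

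**Figure D5:**
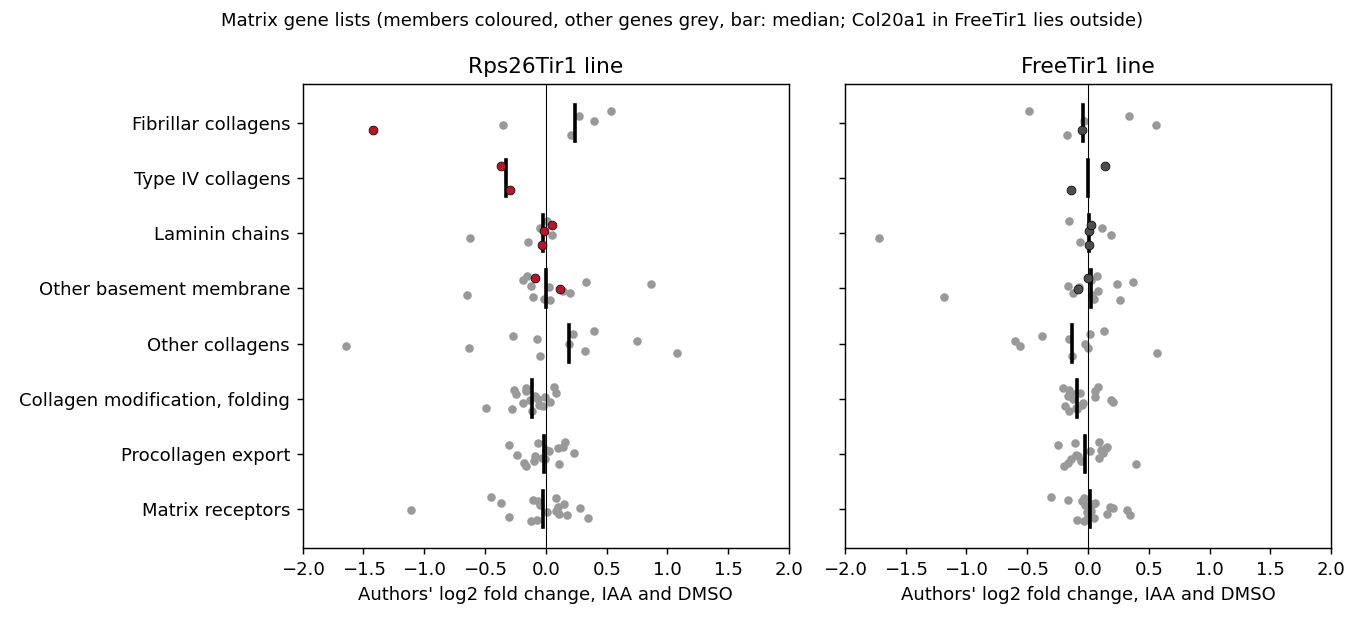
Authors' log2 fold changes between IAA and DMSO for 8 lists of matrix genes (points, members coloured, bars at the median) in Rps26Tir1 cells (left) and FreeTir1 cells (right). Col1a1 lies at -1.42 in Rps26Tir1 cells and the other fibrillar collagens lie between -0.36 and 0.54, and genes for collagen modification and folding have a median of -0.11 there and -0.09 in FreeTir1 cells.

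Most embryonic stem cell markers had high averages, and some markers of other cell types did too. All 15 embryonic stem cell markers were measured, with averages from 1.40 to 10.8 in the authors' deposited table, led by Dppa5a, Pou5f1, Tdgf1 and Zfp42. Of these, 14 averaged at least 3, and none was called. Of 20 primitive and parietal endoderm markers 17 were measured, with averages from -1.12 to 3.43 in the authors' deposited table. Of these 10 were negative in Rps26Tir1 cells with a median of -0.09 and 9 in FreeTir1 cells with a median of -0.10, and none was called. Of 20 fibroblast markers 9 were measured, of which 7 were positive in Rps26Tir1 cells with a median of 0.13 and 3 in FreeTir1 cells with a median of -0.05. Of that list Col6a3, Dcn, Lum, Postn and Lox, like Col1a2 and Col3a1, have no value here. For the 4 fibroblast markers of highest average the authors' deposited table gave -0.06 (Fn1), 0.13 (Vim), 0.0088 (Fbln1) and -0.28 (Thy1) in Rps26Tir1 cells, against -0.01 (Fn1), 0.18 (Vim), -0.14 (Fbln1) and -0.06 (Thy1) in FreeTir1 cells. Fn1 and Thy1 were the 2 negative genes of the 9 in Rps26Tir1 cells. Of 5 measured mesoderm markers, Eomes was called, against 1.64% of all genes, and nothing is read from this count. The authors' deposited table gave Eomes -0.62 in Rps26Tir1 cells (adjusted p = 0.0445) and -0.07 in FreeTir1 cells (adjusted p = 0.969). Its difference between the lines was -0.55 with SE 0.229 and adjusted p = 0.644. The medians of these 5 were -0.32 in Rps26Tir1 cells and -0.28 in FreeTir1 cells. The 6 measured endothelial markers had averages from -0.59 to 5.48 in the authors' deposited table. Of these 4 were positive in Rps26Tir1 cells (median 0.19) and 0 in FreeTir1 cells (median -0.20), and none was called. In bulk samples fewer cells of a type and less RNA per cell cannot be told apart. Since the fractions behind the fold changes are not named, neither can be told from a shift of mRNA between fractions. The part of any of these, or of these cell types, in the value of Col1a1 was not tested.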

How the data were processed

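The 24 libraries of polyadenylated RNA came from Trizol extracts and paired-end TruSeq preparation, per the labels' protocols. How reads were aligned, counted, normalized and modelled, and on which genome build, is not given in the sources used here. The column names are those that limma writes, but no tool is stated. Per the file headers, the deposited table holds a log fold change and an average expression, read as log2, for each gene. Powers of 2 of the averages sum to 657744, and powers of e to 10408730. Per the file headers, it also holds a p-value and an adjusted p-value for each line. For Rps26Tir1 cells the smallest of these imply 15864 genes adjusted together by the authors. No values per library were analysed here, so read depth is unknown.

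SEs are the fold change over the t-statistic of the deposited p-value at 29 degrees of freedom, chosen between 8 and 60 so that, among genes averaging 3 or more, the SEs of both lines kept the steadiest ratio. The difference between the lines was tested two-sided with the root of the summed squared SEs and Benjamini-Hochberg adjustment, after a check on simulated data. Python 3.11.15 and scipy 1.17.1 were used. Transcripts were matched by identifier to GENCODE M21 (GRCm38), for all 13504 genes, and 1 start window is not reported here. Members and lists were chosen with earlier results of these data known. Text names all members, Rack1, Rps26, called genes of a list and a selection from the 4 non-members of each list with the highest average. Col11a1, Col20a1, Crtap, Fkbp10, Lama4, Loxl1, Pxdn and Rnaset2b were named after their values were seen. Alternatives were the genes adjusted together, minimum averages of 1 and 3, other degrees of freedom, full lists, centring and length.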

Additional observations from a re-analysis of the deposited data

How the results depend on the processing

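The call of Col1a1 in Rps26Tir1 cells held when p-values were adjusted over the genes in the table, with adjusted p = 0.0274. With a minimum average expression of 1 or of 3 the count of members called became 0 in each case, because Col1a1 was no longer among the genes tested. The 3 calls over the matrix lists became 0 at a minimum of 3, as all 3 genes average under 1. Such minimums remove these genes whatever their p-values and so do not test their calls. In FreeTir1 cells and in the difference between the lines the count of members called was 0 under every alternative run, and the adjusted p of the Col1a1 difference was 0.474 with 20 degrees of freedom and 0.424 with 60. Fibrillar minus basement membrane medians changed from -1.38 for the members to 0.27 for the full lists in Rps26Tir1 cells, a reversal that follows from replacing 1 gene by 6, and were -0.057 and -0.056 in FreeTir1 cells. Centring on the median of all genes cannot change such a difference and tests nothing about it. The range of member levels was 7.38 log2 units per kilobase and 6.76 without division by length. A normal distribution in place of the t gave SEs 1.01 to 1.15 times as large. The 71 alternatives for single members, those of Col1a1 above among them, leave the fold change or the difference between the lines as it was. They can move only its adjusted p, which stayed on the same side of the threshold in each. No paired analysis was possible because the table holds comparisons and no values per library, and for the same reason no replicate was left out.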

Other observations

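The genes below were chosen after their values were seen, and none passed the threshold over all genes. Fkbp10, Crtap and Loxl1 act in collagen maturation and had the lowest values of their lists in Rps26Tir1 cells. For Fkbp10, a prolyl isomerase of collagen folding, the authors' deposited table gave -0.50 in Rps26Tir1 cells (adjusted p = 0.105) and -0.10 in FreeTir1 cells (adjusted p = 0.960). For Crtap, a subunit of the prolyl 3-hydroxylase complex, the authors' deposited table gave -0.28 in Rps26Tir1 cells (adjusted p = 0.152) and -0.09 in FreeTir1 cells (adjusted p = 0.913). For Loxl1, a lysyl oxidase-like enzyme tied to elastic fibres, the authors' deposited table gave -0.56 in Rps26Tir1 cells (adjusted p = 0.106) and 0.15 in FreeTir1 cells (adjusted p = 0.920), and its difference of -0.71 had SE 0.261 and adjusted p = 0.551. Pxdn, the peroxidasin that crosslinks type IV collagen, was given 0.33 in Rps26Tir1 cells (adjusted p = 0.212) and 0.37 in FreeTir1 cells (adjusted p = 0.622) by the authors' deposited table.

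Large values of matrix genes with low averages also occurred in FreeTir1 cells. For Col20a1, the authors' deposited table gave 0.32 in Rps26Tir1 cells (adjusted p = 0.826) and -4.72 in FreeTir1 cells (adjusted p = 0.221), at an average expression of -0.63. For the laminin alpha-4 gene Lama4, the authors' deposited table gave -0.63 in Rps26Tir1 cells (adjusted p = 0.466) and -1.72 in FreeTir1 cells (adjusted p = 0.317), at an average expression of -1.50.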
